A study of Rattus norvegicus with 14 samples.

Results

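Calponin 1 (Cnn1) and 7 other genes of the smooth muscle contractile apparatus (Acta2, Actg2, Tagln, Myh11, Des, Tpm1 and Tpm2) were followed in small intestine of rats aged 20 days. The group was chosen from measured values: Cnn1 was picked by its ratio after 4 h of perfusion set against arrays that carried 1 RNA in both channels, and its partners were added by name. The values of these genes at 4 h are therefore given as description, and nothing is read from a test of them. By the gene symbols of the platform annotation 5 of the 8 genes were measured, out of 4156 genes with a symbol, through 6 of the 4952 probes. Cnn1, Acta2, Actg2 and Tagln had 1 probe each and Myh11 had 2, while Des, Tpm1 and Tpm2 had none under those symbols and were not analysed here.

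The intestine had been perfused with HG or HF, names that the labels do not spell out and that are read here, from knowledge of the study, as high glucose and high fructose. Each array set the HF RNA of a pair against the HG RNA of the same number, in 5 pairs after 4 h and in 4 after 20 min. A further 3 arrays, named 1HG, 3HG and 3HF and called self-self here, carried 1 RNA of the 4 h perfusion in both channels, and array 6 was a second array of pair 2. The last array was hybridised with labelling primers and with no named tissue RNA. All tissue RNA thus came from perfused intestine of 1 age, and no array held intestine perfused with neither solution. A ratio cannot tell more RNA with HF from less RNA with HG. The labels do not say which layers of the wall were taken, nor whether the pairs came from separate animals, so p-values measure only the spread between these arrays.

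Values are log ratios as the authors deposited them, taken as log2 and centred on the median of each array. Ratios above 0 probably stand for more RNA with HF (the HF side) and those below 0 for more with HG (the HG side). This direction is an inference: in the title of array 6 a 5 follows the name of the HG sample and a 3 that of the HF sample, as for swapped dyes, and Slc2a5, the gene of the fructose transporter GLUT5, had a ratio of -1.66 on array 6 against 1.62 on array 2. It takes Slc2a5 to be higher with HF, which was not tested. Across all genes array 6 did not mirror the others. With the self-self median subtracted, its r with the mean of arrays 1, 3, 4 and 5 was 0.04, and 45.8% of genes had opposite signs on arrays 6 and 2. The ratios of 1 array had an SD over all probes of 0.33 to 0.40 on the 9 arrays at 4 h and 20 min. On array 6 the SD was 0.82, and this array entered no comparison. Among the self-self arrays 1HG was the most scattered, with an SD of 1.39 and with 227 probes beyond 2. On the centred scale these lay mostly at low probe numbers, with 19.9% of the first 750 probe numbers beyond 2 and 1.88% of the other 4202. Acta2 is probe number 595 and Cnn1 is 696, so both lie in that stretch, and values are given without 1HG where that array decides them. A ratio carries no level, so the presence of muscle in the samples could not be checked from these genes. In RNA of whole tissue, fewer cells of a type and less RNA per cell cannot be told apart.

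Smooth muscle contracts when thick filaments of smooth muscle myosin pull on thin filaments of actin and tropomyosin, after calcium and calmodulin have switched on the kinase of the myosin light chain. Calponin and transgelin bind the thin filament, and calponin restrains the myosin ATPase. Many of these genes are controlled by serum response factor (SRF) with its coactivator myocardin, through a DNA element called the CArG box. In the intestine the muscle layers mix and propel the contents, while the epithelium takes up the sugars.

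The promoters of Cnn1 and Acta2 are printed because these genes both lay on the HG side on all 5 arrays at 4 h. Sequences are from RefSeq, assembly GRCr8, from 250 bases before to 50 bases after the gene's start, read 5′ to 3′ on the strand of the gene. Cnn1 lies at chr8:28908187-28908486 on the plus strand and Acta2 at chr1:241172454-241172753 on the minus strand. Capitals mark matches to the CArG box in at least 9 of its 10 letters.
Cnn1 promoter: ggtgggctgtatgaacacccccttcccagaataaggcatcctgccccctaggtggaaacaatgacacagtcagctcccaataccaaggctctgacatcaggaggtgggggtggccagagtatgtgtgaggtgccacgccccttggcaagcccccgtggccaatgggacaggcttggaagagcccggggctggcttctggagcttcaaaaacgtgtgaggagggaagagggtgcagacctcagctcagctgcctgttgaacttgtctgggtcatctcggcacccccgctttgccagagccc
Acta2 promoter: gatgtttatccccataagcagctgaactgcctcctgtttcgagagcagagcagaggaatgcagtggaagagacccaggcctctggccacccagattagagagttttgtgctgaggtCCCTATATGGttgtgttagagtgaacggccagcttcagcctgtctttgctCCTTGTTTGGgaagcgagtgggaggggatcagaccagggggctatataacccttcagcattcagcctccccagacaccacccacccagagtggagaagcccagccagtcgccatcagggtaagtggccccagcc

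The Acta2 window held 2 such matches, which start 134 and 84 bases before the start of the gene, and each differs from the full element by 1 letter. The Cnn1 window held none. Among 33469 promoters of the same length 21.3% held at least 1 match at this stringency and 1.64% held the full element, searched by name and in all its spellings, a search that reads both strands because the element is its own reverse complement. The letters TATA, searched on the strand of the gene, occurred 2 times in overlap between 50 and 20 bases before the start of Acta2, against 7.08% of all promoters with at least 1 there. They also occurred inside the first CArG match of Acta2. The Cnn1 window held no TATA, against 39.3% of all promoters that held it anywhere. A match of letters is a description of these windows and cannot show whether a protein binds there. Sequence outside the windows was not searched.

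Cnn1 lay on the HG side on every array at 4 h. Its ratios were -0.47, -0.99, -0.75, -0.17 and -0.72 on arrays 1 to 5 at 4 h, -0.60, -0.16, 0.23 and -0.05 on the 4 arrays at 20 min, and 0.12, 0.14 and 0.03 on the self-self arrays 1HG, 3HG and 3HF. All 5 arrays at 4 h were below all 3 self-self arrays, array 4 by the least. The arrays at 20 min spread across 0, with array 1 as low as the arrays at 4 h and array 3 above every self-self array. The mean ratio was -0.62 ± 0.31 at 4 h (SD, n = 5), -0.15 ± 0.34 at 20 min (n = 4) and 0.09 ± 0.06 on the self-self arrays (n = 3). The mean was thus lowest at 4 h, but the ranges at 4 h and 20 min overlapped, as did those at 20 min and on the self-self arrays. The self-self arrays are a control with RNA of the 4 h perfusion and not a further time, and the values at 4 h picked Cnn1.

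**Figure D1:**
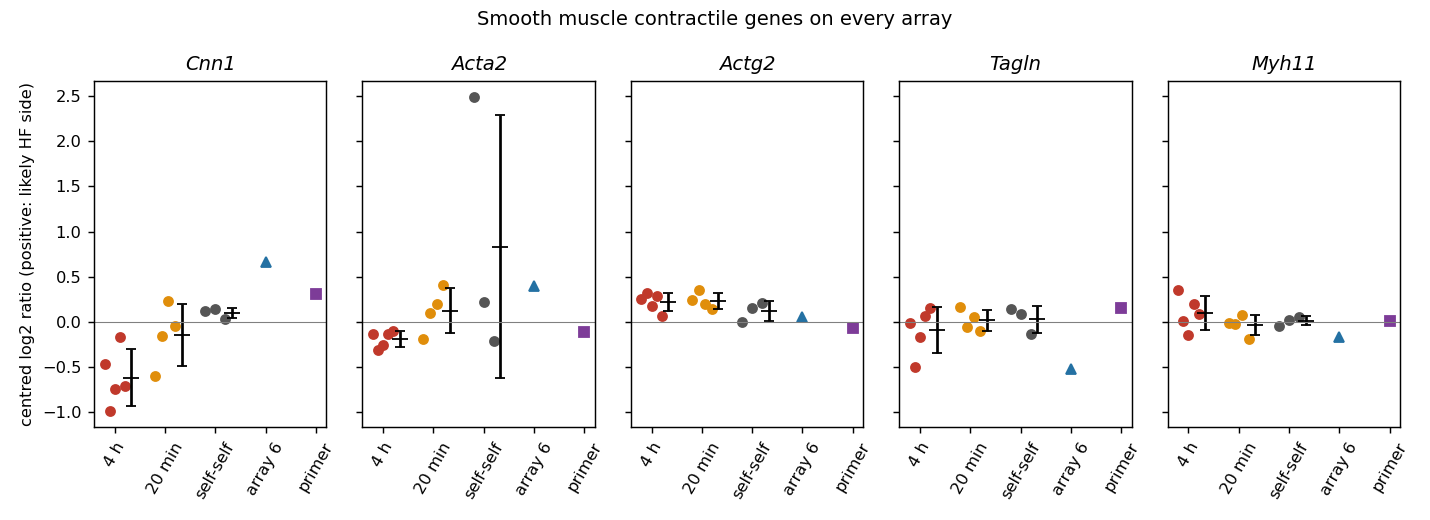
Centred log2 ratio (vertical axis, likely HF side positive) of each measured gene on each array, for the 5 arrays at 4 h, the 4 at 20 min, the 3 self-self arrays, array 6 and the primer array; points are arrays and bars are mean ± SD. Cnn1 sits below 0 on all 5 arrays at 4 h and Actg2 above 0 on all 9 arrays at 4 h and 20 min, while 1 self-self array at 2.49 stretches the Acta2 panel.

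Set against the self-self arrays, Cnn1 at 4 h differed by -0.71 ± 0.20 (SE), a ratio of 0.61 on the linear scale. This contrast picked the gene, and its value is a description. Among the 4682 features, genes and unnamed probes together, the groups did not overlap for 6.71% in this comparison, and among the 5 members Cnn1 was the only such gene. At 20 min Cnn1 differed from the self-self arrays by -0.24 ± 0.21 (SE). This contrast shares the self-self arrays with the one that picked the gene, so for Cnn1 it too is given with no test. Cnn1 was below the self-self mean on 3 of 4 arrays at 20 min, and without array 1 the difference was -0.09. The difference of 4 h minus 20 min was -0.47 ± 0.18 (SE), a value that uses the arrays that picked the gene.

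Acta2, the gene of the smooth muscle alpha actin of the thin filament, also lay on the HG side on every array at 4 h, but by less. Its ratios were -0.14, -0.31, -0.25, -0.13 and -0.10 on arrays 1 to 5 at 4 h, -0.19, 0.09, 0.19 and 0.40 on the arrays at 20 min, and 2.49, 0.21 and -0.21 on 1HG, 3HG and 3HF. The arrays at 4 h lay within a narrow band below 0, and 3 of the 4 arrays at 20 min lay above 0. The self-self arrays did not hold together, since 1HG stood far above every other array. The means were -0.19 ± 0.09 at 4 h (SD, n = 5), 0.13 ± 0.25 at 20 min (n = 4) and 0.83 ± 1.46 on the self-self arrays (n = 3).

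Every Acta2 difference from the self-self arrays rests on 1HG. The difference was -1.02 ± 0.45 (SE) at 4 h, and -0.19 without 1HG. At 20 min it was -0.71 ± 0.47 (SE), which did not pass limma's test (adjusted p = 0.852), and 0.12 without 1HG, on the other side of 0. The difference of 4 h minus 20 min, -0.31 ± 0.42 (SE), takes no mean from the self-self arrays, although its SE does use their spread.

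Actg2, the gene of the smooth muscle gamma actin that is typical of the gut wall, lay on the HF side at both times. Its ratios were 0.25, 0.32, 0.18, 0.29 and 0.06 on arrays 1 to 5 at 4 h, 0.25, 0.35, 0.19 and 0.14 on the arrays at 20 min, and -0.00, 0.15 and 0.21 on the self-self arrays. All 9 arrays at 4 h and 20 min were above 0, but so were the self-self arrays 3HG and 3HF, and the 3 groups overlapped. The means were 0.22 ± 0.10 at 4 h (SD, n = 5), 0.23 ± 0.09 at 20 min (n = 4) and 0.12 ± 0.11 on the self-self arrays (n = 3). Against the self-self arrays the differences were 0.10 ± 0.10 (SE) at 4 h and 0.11 ± 0.10 (SE) at 20 min, and the second did not pass limma's test (adjusted p = 0.928). Without 1HG they were 0.04 and 0.05. The 2 smooth muscle actins thus lay on opposite sides of 0 at 4 h, but for both the arrays at 4 h overlapped the self-self arrays. On 3HF, with 1 RNA in both channels, Acta2 had -0.21 and Actg2 had 0.21. The difference of the 2 actins from each other was not tested.

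Tagln encodes transgelin (SM22), an actin-binding protein of the calponin family that marks smooth muscle. Its ratios were -0.02, -0.50, -0.17, 0.07 and 0.16 on arrays 1 to 5 at 4 h, 0.17, -0.05, 0.05 and -0.10 on the arrays at 20 min, and 0.15, 0.08 and -0.14 on the self-self arrays. At 4 h only array 2 left the range of the other groups by a wide margin, and every group crossed 0. The means were -0.09 ± 0.26 at 4 h (SD, n = 5), 0.02 ± 0.12 at 20 min (n = 4) and 0.03 ± 0.15 on the self-self arrays (n = 3). The difference from the self-self arrays was -0.12 ± 0.14 (SE) at 4 h and -0.01 ± 0.15 (SE) at 20 min, where limma gave an adjusted p of 0.993. Without 1HG these were -0.06 and 0.04, on opposite sides of 0.

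Myh11, the heavy chain of smooth muscle myosin and the motor of the thick filament, showed no common side at 4 h. The mean of its 2 probes was 0.35, 0.01, -0.15, 0.20 and 0.09 on arrays 1 to 5 at 4 h, -0.02, -0.02, 0.08 and -0.19 on the arrays at 20 min, and -0.04, 0.02 and 0.05 on the self-self arrays. The self-self arrays formed the tightest group and lay inside the range of both others. The means were 0.10 ± 0.19 at 4 h (SD, n = 5), -0.04 ± 0.11 at 20 min (n = 4) and 0.01 ± 0.05 on the self-self arrays (n = 3). The difference from the self-self arrays was 0.09 ± 0.11 (SE) at 4 h and -0.05 ± 0.12 (SE) at 20 min, where limma gave an adjusted p of 0.989. Without 1HG these were 0.06 and -0.08.

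The 2 Myh11 probes disagreed at 20 min. Probe 1932 had ratios of -0.23, -0.22, 0.06 and -0.45 on the arrays at 20 min, and probe 3012 had 0.19, 0.17, 0.09 and 0.07. The second lay above the first on all 4 arrays, and their means of -0.21 ± 0.21 and 0.13 ± 0.06 (SD, n = 4 each) cancel in the average. At 4 h the means were 0.06 ± 0.18 for probe 1932 and 0.14 ± 0.24 for probe 3012 (SD, n = 5 each), and on the self-self arrays 0.05 ± 0.18 and -0.03 ± 0.15 (n = 3 each). Which transcripts each probe reads is not known here.

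**Figure D2:**
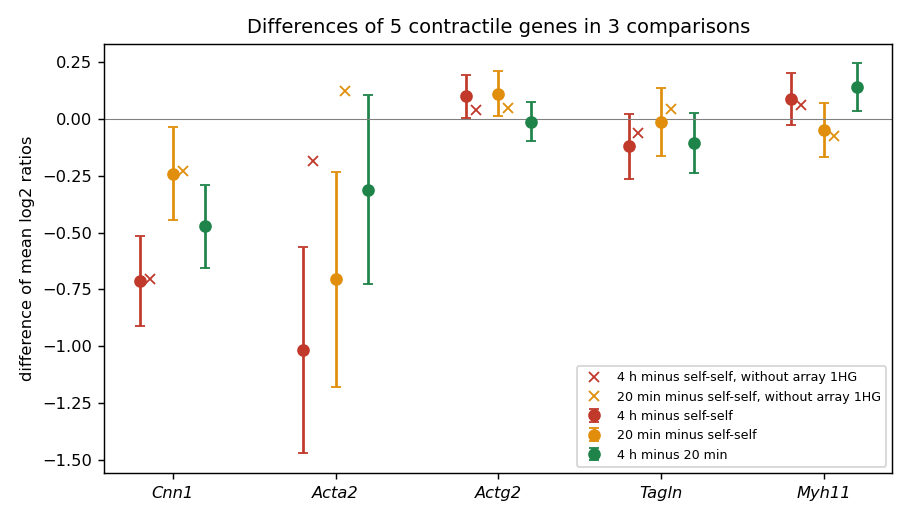
Difference of mean log2 ratios (vertical axis) for the 5 measured genes in 3 comparisons; points are differences and bars are ± SE from the limma fit, and crosses give the difference without the self-self array 1HG. Cnn1 keeps -0.71 at 4 h nearly in place without 1HG, whereas Acta2 moves to -0.19.

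None of the 5 members was called at an adjusted p below 0.05 in any of the 3 comparisons. At 4 h against self-self 0 of 5 members were called against 0.0641% of features, at 20 min against self-self 0 of 5 against 0.0427%, and at 4 h against 20 min 0 of 5 against 0.598%. At an unadjusted p below 0.05 limma gave 0 of the 5 members at 20 min against self-self. Over all 4682 features it gave 467, 244 and 633 in the 3 comparisons. Groups did not overlap for 0 of 5 members at 20 min against self-self, where the share was 7.01% of features, and for 0 of 5 at 4 h against 20 min, where it was 6.54%. The 3 comparisons share arrays pairwise, and nothing is read from the first and the third, since the 4 h arrays picked Cnn1. The median of the members was -0.12 at 4 h against self-self, -0.05 at 20 min against self-self and -0.11 at 4 h against 20 min, beside medians of -0.01, 0.00 and -0.01 over all features. Without 1HG the first and second were -0.06 and 0.04, so the sign at 20 min rests on that array. With single arrays left out the first ran from -0.21 without 3HF to -0.02 without array 2 at 4 h, and the third from -0.17 without array 5 to -0.04 without array 2 at 4 h.

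The members did not share 1 side of 0. Their median on each array was -0.02, -0.31, -0.17, 0.07 and 0.06 on arrays 1 to 5 at 4 h, -0.02, -0.02, 0.19 and -0.05 on the arrays at 20 min, and 0.12, 0.14 and 0.03 on the self-self arrays. Arrays 4 and 5 at 4 h were within the range of the self-self arrays, and arrays 1, 2 and 3 were below it. Cnn1 was the lowest of the 5 members on 5 of 5 arrays at 4 h, on 2 of 4 at 20 min and on 0 of 3 self-self arrays. The counts at 4 h and on the self-self arrays come from the values that picked Cnn1, so nothing is read from them. The members above 0 at 4 h were Actg2 on all 5 arrays, Myh11 on 4 and Tagln on 2.

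Over all 9 arrays of HF against HG, Cnn1 and Acta2 had the highest correlation of all pairs of members (Pearson r = 0.82, Spearman rho = 0.88). Within the times r was 0.68 over the 5 arrays at 4 h and 0.77 over the 4 at 20 min, and it was 0.76 over 7 arrays without the 2 farthest from the median of Cnn1. Within the 4 h arrays it was not the closest pair, since r was 0.96 for Acta2 with Tagln and 0.69 for Cnn1 with Tagln. The points share their arrays, both genes were lower at 4 h than at 20 min, and both probes lie in the stretch of low probe numbers, so r is given as a description. The other pairs with Cnn1 had an r of 0.41 for Tagln, 0.03 for Myh11 and -0.00 for Actg2. Of the 2 promoters printed above, the Acta2 window holds CArG matches and the Cnn1 window does not.

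**Figure D3:**
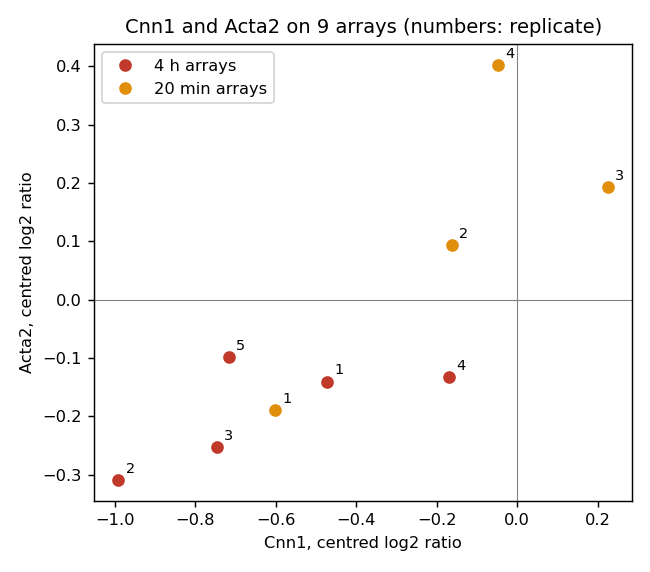
Centred log2 ratio of Acta2 (vertical axis) against that of Cnn1 (horizontal axis) on the 5 arrays at 4 h and the 4 at 20 min, each point an array with its replicate number. Array 1 at 20 min, at -0.60 for Cnn1, lies among the arrays at 4 h, and the other arrays at 20 min lie above them for Acta2.

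Among 4151 other genes with a symbol, those most like Cnn1 over the 9 arrays were Sag (r = 0.92), Pou6f1 (0.90), St6gal1 (0.90), Slc16a8 (0.89) and Megf6 (0.89). Sag, the retinal arrestin, differed from the self-self arrays by -0.33 at 4 h and -0.08 at 20 min, and St6gal1, a sialyltransferase, by -0.22 and 0.08. Those most like the mean of the 5 members were Necab1 (r = 0.94), Ccn2 (0.92), Bdkrb1 (0.91), Mpeg1 (0.91) and Chi3l1 (0.90). Ccn2, a matrix-associated growth factor, differed from the self-self arrays by -0.25 at 4 h and 0.00 at 20 min. None of these 10 genes belongs to the contractile lists described next, and with 9 arrays among so many genes high values of r occur widely.

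The wider contractile machinery was read from 6 lists with 56 of their 90 genes measured, none of them a member. At 4 h against self-self 35 of the 56 lay below 0 with a median of -0.05, against 51.5% of all features below 0. At 20 min against self-self 26 of 56 lay below 0 (median 0.01), against 49.4% of all features, and at 4 h against 20 min 39 of 56 (median -0.11), against 51.97%. None of the 56 was called in any comparison (smallest limma adjusted p = 0.121), and at an unadjusted p below 0.05 limma gave 3, 2 and 7 of the 56, or 5.36%, 3.57% and 12.5%, against 9.97%, 5.21% and 13.5% of all features. Without 1HG 36 of 56 were below 0 at 4 h against self-self (median -0.03) and 24 at 20 min (median 0.02).

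Of the calponin relatives and other thin filament regulators 5 of 9 were measured, and 4 lay below 0 at 4 h against self-self (median -0.02, or -0.07 without 1HG). At 20 min against self-self 2 did (median 0.07, or 0.02 without 1HG), and at 4 h against 20 min 4 did (median -0.10). Cnn3, the calponin of non-muscle cells, differed by 0.17 ± 0.14 (SE) at 4 h and by -0.02 ± 0.15 (SE) at 20 min, not in the direction of Cnn1 at 4 h. Tagln3, a transgelin known from neurons, differed by -0.91 ± 0.29 (SE) at 4 h, but its self-self ratio on 3HG was 1.88 while its ratios at 4 h lay between -0.17 and 0.23. Cald1, the gene of caldesmon, which restrains actomyosin as calponin does, lay between -0.39 and 0.03 at 4 h and between 0.07 and 0.22 at 20 min. Its groups at the 2 times did not overlap, as was the case for 6.54% of all features. The difference of 4 h minus 20 min was -0.34 ± 0.11 (SE), which did not pass (limma adjusted p = 0.206).

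The regulators of myosin lay near 0. Of 9 measured from 17 listed, 6 lay below 0 at 4 h against self-self (median -0.05), 4 at 20 min (median 0.02, or 0.01 without 1HG) and 6 at 4 h against 20 min (median -0.06). Rock1, a kinase that inhibits myosin phosphatase, was lowest at -0.18 ± 0.11 (SE), and Rhoa, the GTPase that activates it, was highest at 0.09 ± 0.09 (SE). Ppp1cb, the catalytic subunit of that phosphatase, differed by -0.25 ± 0.10 (SE) at 4 h against 20 min, with a limma adjusted p of 0.277.

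Genes of dense plaques, adhesion and intermediate filaments had 9 of 17 measured, with 6 below 0 at 4 h against self-self (median -0.10), 4 at 20 min (median 0.01, or -0.05 with 5 below 0 without 1HG) and 7 at 4 h against 20 min (median -0.09). Csrp1, a LIM protein abundant in smooth muscle, was lowest at -0.27 ± 0.17 (SE) at 4 h against self-self. Itga8, an integrin of smooth muscle and mesenchyme, was highest at 0.81 ± 0.38 (SE), a value that rests on 1HG and was 0.13 without it.

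Calcium handling genes and receptors had 17 of 20 measured, with 11 below 0 at 4 h against self-self, 9 at 20 min and 13 at 4 h against 20 min. Their medians were -0.12, -0.05 and -0.14, and without 1HG the first and second were -0.03 and 0.05. Pde5a, the phosphodiesterase that breaks down cyclic GMP in smooth muscle, lay between -0.51 and -0.11 at 4 h, between -0.07 and 0.49 at 20 min, and at 0.09, 0.04 and 0.18 on the self-self arrays. Its arrays at 4 h were below all arrays of the other groups. Groups did not overlap for 6.71% of all features at 4 h against self-self and for 6.54% at 4 h against 20 min. Pde5a was also named for being among the lowest of its list at 4 h against self-self. The difference of 4 h minus 20 min was -0.48 ± 0.12 (SE), the smallest adjusted p in these lists (limma, 0.121). Atp2b1, a calcium pump of the plasma membrane, differed by -5.82 ± 2.90 (SE) at 4 h against self-self, from a ratio of 16.7 on 1HG, and by -0.26 without it. The highest of the list in that comparison were Kcnma1 at 0.12 ± 0.11 (SE) and Atp2b4 at 0.10 ± 0.13 (SE). Without 1HG these were 0.07 and -0.02.

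The regulators that act through SRF had 6 of 13 measured, with 4 below 0 at 4 h against self-self, 3 at 20 min and 4 at 4 h against 20 min. The medians were -0.08, 0.10 and -0.19, and without 1HG the first and second were -0.00 and 0.22, with 3 and 1 of 6 below 0. Klf4, a factor known to repress smooth muscle genes, lay between -0.37 and -0.02 at 4 h and between 0.04 and 0.34 at 20 min. Groups at the 2 times did not overlap for 6.54% of all features. On 1HG, 3HG and 3HF Klf4 had 0.15, 0.11 and -0.25, the last within its range at 4 h. The difference of 4 h minus 20 min was -0.35 ± 0.11 (SE, limma adjusted p = 0.193). The highest of the list at 4 h against self-self were Tgfb1 at 0.04 ± 0.11 (SE) and Smad3 at 0.04 ± 0.11 (SE).

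The cytoplasmic actins and non-muscle myosins, 10 of 14 measured, had 4, 4 and 5 genes below 0 in the 3 comparisons (medians 0.03, 0.02 and -0.05). Without 1HG 5 of 10 lay below 0 in the first and in the second, and both medians turned sign, to -0.01 and -0.04. Pfn1, the gene of the actin-binding profilin, was the lowest at 4 h against self-self with -0.70 ± 0.24 (SE). Its ratios were below 0 on every array, with -0.35, -0.29 and -0.57 on 1HG, 3HG and 3HF and -1.73 to -0.66 at 4 h. The highest were Myh14 at 2.22 ± 1.19 (SE), or -0.06 without 1HG, and Actg1 at 0.21 ± 0.23 (SE). The genes of striated muscle, 18 of 30 measured, had 11, 7 and 13 below 0 (medians -0.04, 0.07 and -0.06), and without 1HG the first median was -0.08 and 4 of 18 were below 0 at 20 min against self-self. Cryab, a small heat shock protein of muscle and other tissues, differed by -0.65 ± 0.19 (SE) at 4 h against 20 min (limma adjusted p = 0.161). At 4 h against self-self Cryab differed by -0.55 ± 0.21 (SE). The highest of the list there were Myh1 at 2.99 ± 1.60 (SE), or -0.09 without 1HG, and Myh6 at 0.34 ± 0.23 (SE).

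**Figure D4:**
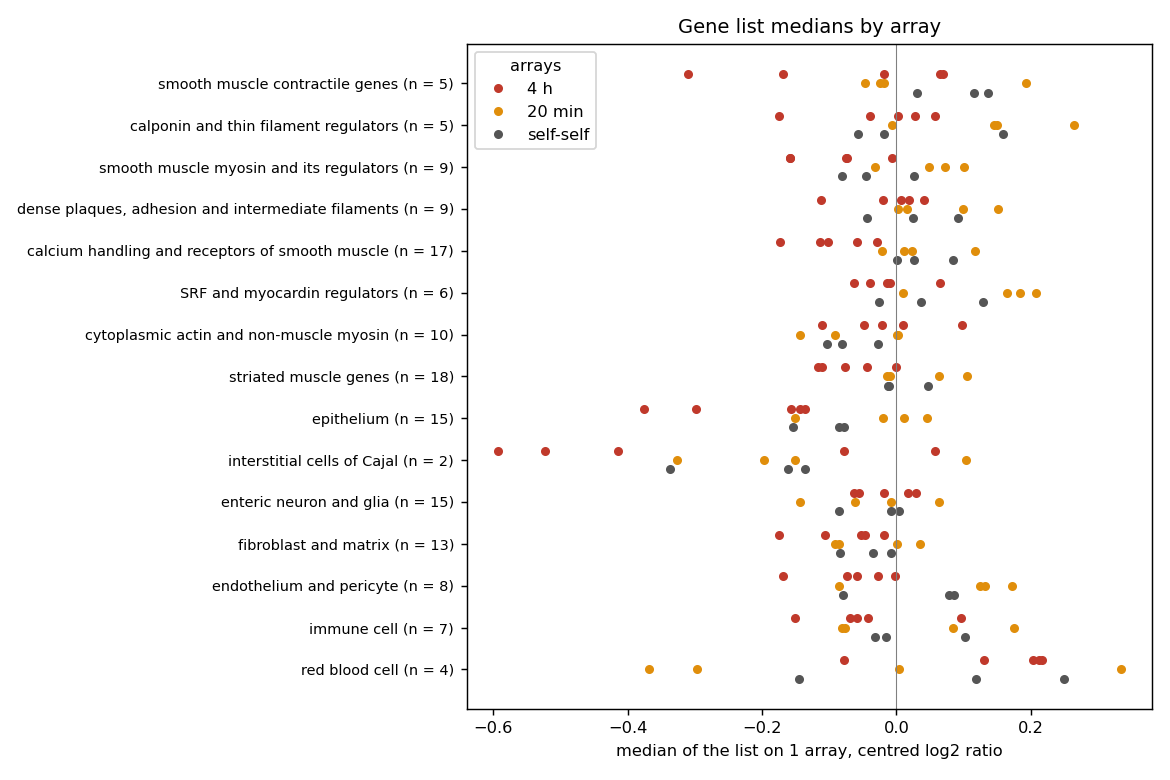
Median centred log2 ratio of each gene list (horizontal axis) on each array of the 3 groups (4 h, 20 min and self-self), with the number of measured genes in brackets. The members spread from -0.31 to 0.07 at 4 h, and the epithelial markers lie between -0.38 and -0.14 at 4 h.

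Markers of other cell types in the wall were read beside the members, and no marker was called in any comparison. Epithelial markers, 15 of 17 measured, had 9, 6 and 11 below 0 at 4 h against self-self, 20 min against self-self and 4 h against 20 min (medians -0.14, 0.06 and -0.24). Their median on an array ranged from -0.38 to -0.14 at 4 h, from -0.15 to 0.05 at 20 min and from -0.15 to -0.08 on the self-self arrays, so the arrays at 4 h lay at the low end for the epithelium as for Cnn1, with overlap between the groups. Krt18 was the lowest at 4 h against self-self with -5.21 ± 2.74 (SE), from a ratio of 15.7 on 1HG, and was 0.05 without it. Fabp2, the intestinal fatty acid-binding protein, followed at -0.56 ± 0.20 (SE) in that comparison, or -0.48 without 1HG. At the other end Alpi, the intestinal alkaline phosphatase, differed by 0.42 ± 0.39 (SE), and Muc2, the mucin of goblet cells, by 0.73 ± 0.44 (SE), or -0.08 without 1HG. The value of Alpi rests on its self-self ratio of -2.06 on 3HG, while its ratios at 4 h lay between -1.01 and 0.22 with a median of -0.47.

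The markers of fibroblasts and matrix, 13 of 14 measured, had 9, 5 and 10 below 0 in the same comparisons (medians -0.11, 0.07 and -0.07), and their array medians ranged from -0.17 to -0.02 at 4 h, -0.09 to 0.04 at 20 min and -0.08 to -0.01 on the self-self arrays. Those of endothelium and pericytes, 8 of 10 measured, had 7, 3 and 6 below 0 (medians -0.10, 0.06 and -0.09), and array medians from -0.17 to -0.00 at 4 h, -0.08 to 0.17 at 20 min and -0.08 to 0.09 on the self-self arrays. Tek, an endothelial receptor, differed by -0.40 ± 0.12 (SE) at 4 h against 20 min, the lowest of the 8, and Rgs5 by 0.03 ± 0.13 (SE). At 4 h against self-self Tek was again the lowest at -0.35 ± 0.13 (SE), and Rgs5 the highest at 0.23 ± 0.14 (SE).

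For enteric neurons and glia, 15 of 18 measured, 4, 6 and 5 genes lay below 0 (medians 0.03, 0.01 and 0.02), and without 1HG 7 and 10 of 15 in the first and second comparisons (medians 0.00 and -0.04). Interstitial cells of Cajal, the pacemaker cells of the gut muscle, had 2 of 4 markers measured, Kit at -0.13 ± 0.17 (SE) and Prkcq at -0.07 ± 0.21 (SE) at 4 h against self-self. Immune markers, 7 of 14 measured, had 4, 4 and 3 below 0 (medians -0.05, -0.04 and 0.02, the first and second 0.00 and -0.02 without 1HG), and red blood cell markers, 4 of 6 measured, had 1, 3 and 0 (medians 0.11, -0.17 and 0.26). Whether a change in the mix of cells has a part in the values of Cnn1 was not tested, since these arrays give ratios and no levels.

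Array 6, the second array of pair 2, gave opposite signs to array 2 for 3 of the 5 members relative to the self-self median, and 45.8% of the 4156 genes with a symbol did the same. Cnn1 lay at 0.55 on array 6 against -1.11 on array 2, Acta2 at 0.18 against -0.52 and Actg2 at -0.10 against 0.17. Tagln kept its sign, with -0.61 on array 6 against -0.58 on array 2, and so did Myh11, with -0.19 against -0.01. With the self-self median subtracted, array 6 correlated at r = 0.04 across features with the mean of arrays 1, 3, 4 and 5 at 4 h, and at r = 0.41 as deposited. Averaging it into pair 2 gave Cnn1 a difference of -0.55 at 4 h against self-self as deposited and -0.68 with its sign turned, against -0.71 without it.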

How the data were processed

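The authors deposited 1 table of log ratios for 4952 probes on 14 arrays of 2 colours, treated here as log2 values. The base of the logarithm, the direction of the ratio, the scanner, the background correction and the normalization are not stated by any source at hand. Column medians lie between -0.07 and 0.02. Genes were named through the platform annotation: 4426 probes have 1 symbol, 2 have several and 524 have none, and 4371 identifiers were found in the RefSeq table of GRCr8, with 0 symbols changed.

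The ratios of an array were centred on their median and probes of 1 symbol were averaged, which left 4682 features. limma 3.58.1 in R 4.3.3 (lmFit, eBayes) fitted the 12 arrays of the 3 groups together, with 9 residual and 2.84 prior degrees of freedom, and a call needed an adjusted p below 0.05 (Benjamini-Hochberg, over all features). The self-self arrays were the control, since 1 RNA in both channels holds no difference between samples. Their ratios hold what differs between dyes and also the noise of each array. Actg1 had ratios of 1.37, 1.85 and 0.98 there, while Acta2 had 2.49 on 1HG, 0.21 on 3HG and -0.21 on 3HF. Subtracting the self-self mean thus carries that noise into the differences. Signal intensities were not analysed here, dim probes are included, and the number of arrays limits the precision.

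The members, the gene lists and the rule that array 6 stays out were chosen with earlier results of these data known. Genes named from the lists are among the 2 highest and the 2 lowest of their list at 4 h against self-self. Not all of these are named, and none is for fibroblasts, neurons and glia, immune cells or red blood cells. All measured members are named, and the 5 genes most like Cnn1 or the members' mean. The fit was run on simulated data with independent normal noise and planted shifts, and with no dye effects and no outlying array. That run does not cover a control group that holds an array such as 1HG. Alternatives covered centring, scaling, quantile normalization, single probes, array weights, the treatment of array 6, ratios against 0, a replicate block and leaving out each array. The lists without 1HG were added after seeing the data.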

Additional observations from a re-analysis of the deposited data

Results flagged for a closer look

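On 2 arrays outside the comparisons some members lay farther from 0 than on any self-self array. On array 6, the second array of pair 2, Cnn1 had a ratio of 0.67, Tagln of -0.53 and Myh11 of -0.17. On the primer array, which carries no named tissue RNA, Cnn1 had a ratio of 0.31 and Tagln of 0.16. The SD over all probes was 0.82 on array 6 and 0.18 on the primer array. In 10 groups of 4 or 5 arrays, 1 for each member and time, no array stood apart from the others by Dixon's test.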

How the results depend on the processing

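Of 325 differences of single members under 22 alternatives, 312 kept their sign. Cnn1 stayed below 0 throughout, with -0.83 to -0.62 at 4 h against self-self, -0.36 to -0.09 at 20 min against self-self and -0.62 to -0.35 at 4 h against 20 min when single arrays were left out. Signs turned only for differences near 0 or resting on 1HG. For Tagln at 20 min against self-self the value was 0.027 with array weights, 0.039 with the replicate block, 0.016 against 0, and -0.098 to 0.045 with single arrays left out. For Actg2 at 4 h against 20 min it was 0.027 with the replicate block and -0.043 to 0.029 with single arrays left out. For Acta2 at 20 min against self-self it was 0.13 against 0 and -1.23 to 0.12 with single arrays left out, the highest without 1HG, and for Myh11 there -0.089 to 0.00070, the highest without array 4 at 20 min.

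Setting the ratios against 0 in place of the self-self arrays called 763 of the 4682 features at 4 h and 384 of the 4682 at 20 min. By construction it keeps dye effects in the values and drops the self-self arrays from the contrast, and the share of each in the counts was not tested. It called 2 of the 5 members at 4 h, Cnn1 at -0.62 and Actg2 at 0.22, from which nothing is read, since these arrays picked Cnn1. At 20 min it called 1 of the 5 members, Actg2 at 0.23 (limma adjusted p = 0.0499, against 0.0499 to 0.999 over all alternatives). No other alternative called a member.

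The counts of all called features were less stable. The 3 called at 4 h against self-self became 0 with array 6 averaged in as deposited, and 2 to 5 with single arrays left out. The 2 called at 20 min against self-self became 0 with array 6 averaged in either way, with only the groups of the comparison, with arrays scaled to 1 spread and with the replicate block, and 0 to 4 with single arrays left out. The 28 called at 4 h against 20 min became 0 with array 6 as deposited, 18 with its sign turned, 16 with scaled arrays, 12 with the replicate block, and 4 to 43 with single arrays left out, the lowest without array 2 at 20 min and the highest without 1HG. The numbers in the sample names did not pair the times: the correlations of the deviations of arrays with the same number were -0.07, 0.16, -0.03 and -0.02. Precision is limited by 3 self-self arrays, 1 of them extreme, by 1 probe for most members and by the unknown signal over background.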
